A study of Homo sapiens with 19 samples.

Results

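The data describe 10 genes whose enzymes take methyl groups off histones or DNA in reactions that consume molecular oxygen: KDM2B, KDM3A, KDM4B, KDM4C, KDM5A, KDM5B, KDM6B, TET1, TET2 and TET3. The genes are given by name, and their signals were taken from every probe set that the platform annotation assigns to a member gene alone. This gave 38 of the 54675 probe sets on the array and 10 of the 19775 genes with a probe set of their own. Expression was measured in SKBR3, an established human breast cancer line with ERBB2 amplification. Untreated cells gave 3 arrays. The other groups were fractions low (CD44lo) or high (CD44hi) in CD44, separated by flow cytometry after treatment for 3 days with 60 nM epirubicin, a topoisomerase II poison of the anthracycline class, or after 1% oxygen for 7 days (n = 4 arrays in each of these 4 groups). CD44 is a surface hyaluronan receptor. The CD44lo fraction is the one labelled CD44-/lo, and no sort is named for the untreated cells, so treatment and sorting cannot be told apart in a comparison with them. The durations also differed between treatments. All samples come from 1 cell line, and the labels call the replicates biological without saying whether they were separate cultures, and p-values cover no more than the spread among these arrays, which could be partly technical. In bulk RNA, fewer cells with a transcript and less RNA per cell cannot be told apart.

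These enzymes belong to the dioxygenases that use oxygen, ferrous iron and 2-oxoglutarate, an intermediate of the citric acid cycle. The KDM members carry a Jumonji C domain and remove methyl groups from histone lysines. KDM3A and KDM4 enzymes act mainly on methylated H3K9, a mark of silent chromatin, KDM5 enzymes on H3K4 at promoters, KDM6B on H3K27 and KDM2B on H3K36. TET enzymes oxidise 5-methylcytosine in DNA. Hypoxia-inducible factor (HIF), which accumulates when oxygen falls, binds DNA at a short core motif, and several Jumonji genes, KDM3A and KDM4B among them, are known HIF targets.

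The promoter windows of 4 members are printed to set the HIF core letters beside the changes described next, for 3 members that were called after hypoxia and 1 (KDM4C) that was not. Sequences are from RefSeq (GRCh38.p14) and give the 250 bases before the first listed transcription start, on the strand of the gene. Capitals mark ACGTG or GCGTG on either strand, so that CACGTG holds an ACGTG on each strand and CACGC is GCGTG on the other strand. The windows lie at chr2:86441121-86441370 for KDM3A, chr19:4968863-4969112 for KDM4B, chr9:6757723-6757972 for KDM4C and chr10:68560087-68560336 for TET1, all on the plus strand.
KDM3A: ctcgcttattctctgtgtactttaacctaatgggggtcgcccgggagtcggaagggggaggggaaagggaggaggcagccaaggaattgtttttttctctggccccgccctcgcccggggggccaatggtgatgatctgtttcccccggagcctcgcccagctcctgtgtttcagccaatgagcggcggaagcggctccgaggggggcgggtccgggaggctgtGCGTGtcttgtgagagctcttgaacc
KDM4B: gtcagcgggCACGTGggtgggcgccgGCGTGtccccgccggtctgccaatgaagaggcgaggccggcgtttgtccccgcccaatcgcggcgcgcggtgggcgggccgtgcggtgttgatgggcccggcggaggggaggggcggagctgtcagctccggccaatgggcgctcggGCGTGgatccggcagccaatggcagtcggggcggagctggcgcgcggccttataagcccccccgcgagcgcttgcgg
KDM4C: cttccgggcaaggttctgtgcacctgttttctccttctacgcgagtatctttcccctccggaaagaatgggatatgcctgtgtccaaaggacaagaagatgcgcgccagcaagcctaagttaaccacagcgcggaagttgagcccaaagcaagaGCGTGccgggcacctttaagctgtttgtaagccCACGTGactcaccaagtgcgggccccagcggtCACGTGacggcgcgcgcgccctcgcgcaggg
TET1: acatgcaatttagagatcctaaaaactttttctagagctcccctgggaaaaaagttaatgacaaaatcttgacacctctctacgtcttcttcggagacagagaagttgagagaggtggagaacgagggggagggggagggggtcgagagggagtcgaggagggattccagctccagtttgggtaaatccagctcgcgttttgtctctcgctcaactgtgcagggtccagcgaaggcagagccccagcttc
KDM3A had a single GCGTG, 26 to 22 bases before the start, and KDM4B had 3 separate stretches. KDM4C, which was not called in any comparison, also had 3, and TET1, which was called after hypoxia, had none in this window. Of the first windows of the 10 genes, 8 held a match and 2 (KDM2B and TET1) did not. Windows at other annotated starts of KDM2B and TET1 did hold one, so that all 10 genes had a match in some window, and 14 of the 19 windows did. Either motif was present in 43.2% of all 35116 windows of this length. Windows of a gene can overlap and share a match, as the 2 of KDM3A do, and some genes have several windows. The counts over the 19 windows and over any window of a gene are therefore not like for like with that share. Nor is the count over first windows, because the share was taken over all windows, those at other starts included. A match is a string of letters and not a measured binding site.

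Signals are MAS5 intensities on a linear scale, and each gene is represented by its probe set with the highest mean. Changes are differences of log2(signal + 4.2) with their standard error, fitted in limma over all 12925 genes with enough signal, and called when the Benjamini-Hochberg adjusted p was under 0.05. The arrays were scaled to a common trimmed mean, and the correlation between arrays of a group was 0.919 to 0.985. The line's markers ERBB2, KRT8, KRT18, KRT19 and EPCAM were high on every array (2067.6 and above), and PGR, which this line lacks, stayed at 9.3 or lower. GRB7, a further marker of the line, was lower than these and ranged from 535.7 to 1829.5. ESR1, also known to be absent from the line, ranged from 2.9 to 36.3 and was called higher after epirubicin (1.56 ± 0.39 in CD44lo and 1.49 ± 0.39 in CD44hi cells). Of 9 markers of other cell types with a probe set, 5 (PTPRC, CD3E, CD14, LUM and DCN) were below 16.9, the median of the table, on all arrays, and none of the 9 was at 0. The summed level of the 9 was 74.9 to 92.9 in untreated cells, 175.7 to 424.7 after epirubicin and 121.3 to 212.6 after hypoxia, and its part in the results was not tested. CDH5, an endothelial cadherin, was the marker among them that was called, higher in all 4 treated groups (1.23 to 2.36). Both hypoxia arrays numbered 2 lay nearest to the other treatments on the first principal component (8.61 and 22.9, against up to 63.9 for hypoxia arrays), and the ratio of 3' to 5' ACTB signal was highest on the epirubicin arrays numbered 4 (1.71 and 1.85, against 1.20 to 1.41 after hypoxia). Results are also given without these pairs where that changes a call.

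After hypoxia, 6 of the 10 genes were higher in CD44lo cells than in untreated cells (KDM3A, KDM4B, KDM5A, KDM5B, KDM6B and TET1) and 4 were higher in CD44hi cells (KDM3A, KDM4B, KDM5B and TET1). None was lower. Over all genes tested, 22.5% were called in the CD44lo comparison (10.7% higher) and 26.9% in the CD44hi comparison (12.8% higher). The median log2 change of the 10 genes was 0.65 in CD44lo and 0.50 in CD44hi cells, against 0.02 and 0.00 over all genes tested. All 10 passed the signal filter, but TET1 did so only through the hypoxia arrays, so it had to differ to be counted and adds no support to the count. With 3 untreated arrays shared by both comparisons, the counts depended on single arrays. Without untreated replicate 1 or untreated replicate 2, 3 genes were called in CD44lo and 1 in CD44hi cells, and without CD44hi hypoxia replicate 1, 2 were called in CD44hi cells. Without both hypoxia arrays numbered 2, the counts were 6 and 5, and without both epirubicin arrays numbered 4 they were also 6 and 5, with KDM5A added in CD44hi cells each time. These counts describe the 10 genes and are no test of them as a set.

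**Figure D1:**
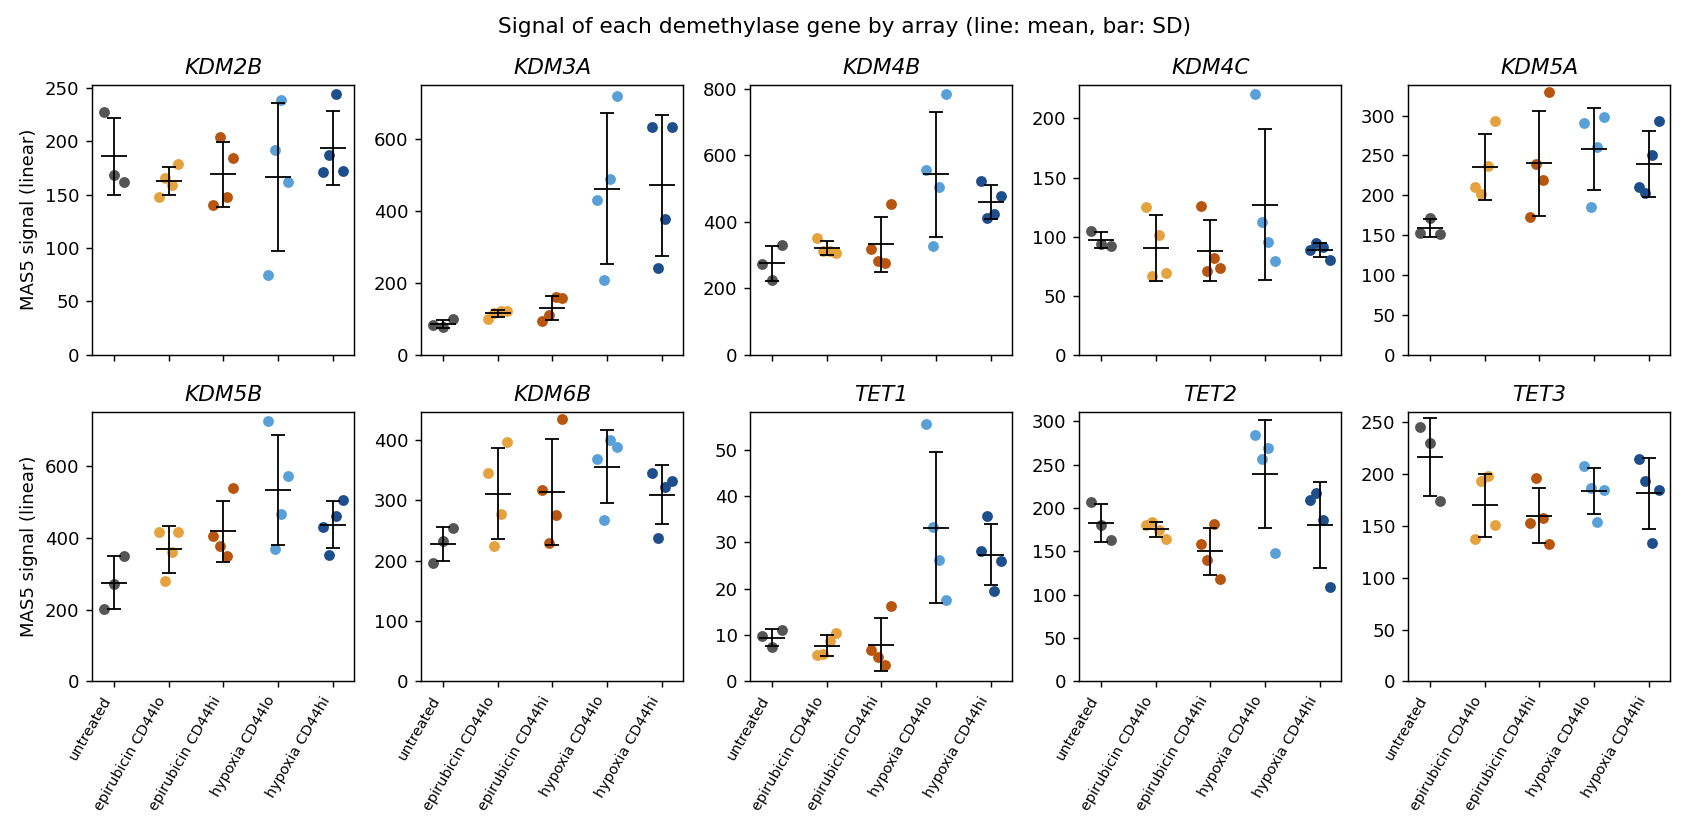
MAS5 signal (linear, y axis) of the probe set that stands for each of the 10 genes, by array, in the 5 groups on the x axis; horizontal lines are means and bars are SD (n = 3 untreated, n = 4 in the others). The KDM3A points after hypoxia lie at 209.2 to 719.6, all above the 161.3 reached elsewhere, while the TET3 groups overlap.

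KDM3A, the H3K9 demethylase, changed most. Its signal was 83.8, 76.6 and 98.5 on the untreated arrays. After hypoxia it was 432.3, 209.2, 490.4 and 719.6 in CD44lo cells and 635.9, 240.2, 378.8 and 634.5 in CD44hi cells. All 8 hypoxia values lay above all 11 others. The rise was 4.75-fold in CD44lo cells (log2 2.25 ± 0.34, adjusted p = 0.00011) and 4.91-fold in CD44hi cells (log2 2.30 ± 0.34, adjusted p = 6.14e-05; limma). It was called in each of the 12 other settings and in each of the 19 fits that left out an array. After epirubicin the signal was 99.4 to 122.3 in CD44lo cells, just above the untreated range, and 93.5 to 161.3 in CD44hi cells, which overlapped it. Those changes, 0.40 ± 0.34 and 0.54 ± 0.34, did not pass (adjusted p = 0.564 and 0.351; limma). From low to high, the group means were 86.3 ± 11.2 untreated, 115 ± 10.5 and 130 ± 33.9 after epirubicin, and 463 ± 210 and 472 ± 196 after hypoxia (SD; CD44lo before CD44hi). Untreated and epirubicin groups did not differ by the test, nor did the 2 hypoxia groups, and the step in this order fell between epirubicin and hypoxia. Its other probe set stayed between 0.1 and 32.2 and was not tested.

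The hypoxia arrays numbered 2 were the lowest of the 8 in KDM3A and also in HIF target genes. On the arrays numbered 2, KDM3A was 1.24 (CD44lo) and 1.44 (CD44hi) log2 units above the untreated mean, against 2.09 to 3.01 on the other 6. A list of 12 HIF targets, which does not include KDM3A, averaged 1.40 and 1.51 on the same arrays and 2.28 to 2.53 on the others. A list of 10 proliferation genes set the same arrays apart, at -1.42 and -1.5 against -3.09 to -1.89. Among the other 6 arrays KDM3A did not follow the order of the HIF list, which was highest on CD44lo replicate 1 (2.53, with KDM3A at 2.28) and lowest on CD44hi replicate 4 (2.28, with KDM3A at 2.83). Without those arrays the KDM3A change was 2.58 in both CD44lo and CD44hi cells. All 12 targets were higher in both hypoxia groups, led by the prolyl hydroxylase EGLN3 (4.34 ± 0.32 and 4.41 ± 0.32), ADM, which encodes a vasodilator peptide (3.56 ± 0.45 and 3.78 ± 0.45), and the transcription factor BHLHE40 (3.05 ± 0.41 and 3.21 ± 0.41). Of these, ADM (1.77 ± 0.45) and BHLHE40 (1.52 ± 0.41) were also higher in CD44hi epirubicin cells, in which KDM3A did not pass. PDK1, another of the 12, was lower after epirubicin in CD44lo (-1.12 ± 0.17) and CD44hi cells (-1.11 ± 0.17).

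**Figure D2:**
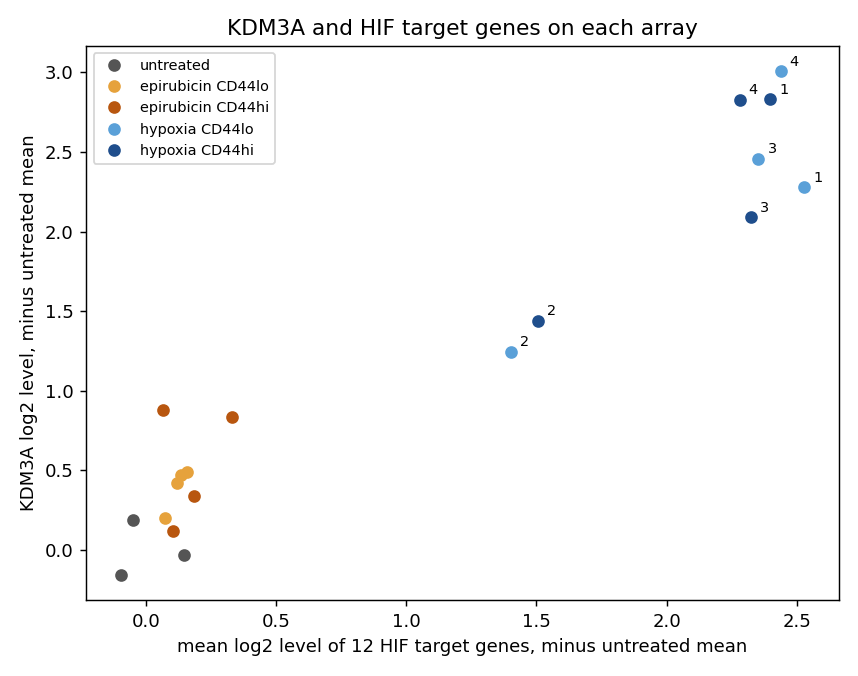
KDM3A on each array (y axis, log2 level above the untreated mean) against the mean of 12 HIF target genes (x axis, same scale); each point is an array, colours are groups and the numbers beside hypoxia points are replicate numbers. The arrays numbered 2 lie between the untreated and epirubicin arrays and the other 6 hypoxia arrays on both axes.

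KDM4B, which demethylates H3K9 and H3K36, also rose. The untreated signals were 271.6, 224.7 and 329.9. Signals after hypoxia were 555.6, 328.5, 504.9 and 784.0 in CD44lo cells, of which replicate 2 fell within the untreated range, and 522.0, 410.5, 424.6 and 476.7 in CD44hi cells, all above it. The increase was 1.89-fold in CD44lo (log2 0.92 ± 0.22, adjusted p = 0.00621) and 1.67-fold in CD44hi cells (log2 0.74 ± 0.22, adjusted p = 0.0191; limma). The CD44hi call was lost without untreated replicate 1 (adjusted p = 0.0576), without untreated replicate 2 (0.108) and without CD44hi hypoxia replicate 1 (0.0546), whereas the CD44lo call held in every setting. After epirubicin the signals were 307.2 to 351.3 and 276.8 to 452.5, with changes of 0.23 ± 0.22 and 0.25 ± 0.22 that did not pass.

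KDM4C, a close relative of KDM4B with the same substrates, was not called. It measured 104.5, 93.9 and 92.3 in untreated cells and 88.5, 94.4, 91.5 and 80.2 in CD44hi hypoxia cells. In CD44lo hypoxia cells replicate 1 read 220.5 and the other 3 read 79.6 to 112.2, so the group overlapped the untreated one. The 95% intervals of the log2 change were -0.32 to 0.86 in CD44lo and -0.71 to 0.47 in CD44hi cells. These include 0 and end below the KDM4B estimates of 0.92 and 0.74. They overlap the KDM4B intervals of 0.45 to 1.39 and 0.27 to 1.21, and the difference between the genes was not tested. Only 1 of its 4 probe sets had enough signal to be tested.

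KDM5B, an H3K4 demethylase often abundant in luminal breast cancer, read 202.0, 271.8 and 349.5 in untreated cells. Hypoxia gave 725.6, 367.6, 465.6 and 571.2 in CD44lo cells and 430.3, 351.9, 459.7 and 505.5 in CD44hi cells, and neither group overlapped the untreated one, although both lowest values were close to it. The rise was 1.91-fold (log2 0.94 ± 0.23, adjusted p = 0.006) and 1.61-fold (log2 0.69 ± 0.23, adjusted p = 0.0302; limma). The CD44lo call was lost without untreated replicate 1 (adjusted p = 0.0559). The CD44hi call was lost without untreated replicate 1 or 2 (0.188 and 0.0749) and without CD44hi hypoxia replicate 1, 3 or 4 (0.0553, 0.0622 and 0.0864). After epirubicin KDM5B read 278.8 to 416.9 in CD44lo and 349.3 to 540.1 in CD44hi cells, with changes of 0.43 ± 0.23 and 0.61 ± 0.23 (adjusted p = 0.319 and 0.109; limma).

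KDM5A, its paralogue, is represented by a probe set that read alike after epirubicin and hypoxia, which its other probe sets, given further on, did not all do. The untreated values were 152.7, 172.1 and 151.5, below all 16 values of treated cells, of which the lowest was 172.5. Signals were 210.0, 201.0, 237.0 and 293.5 in CD44lo and 172.5, 239.2, 218.7 and 329.4 in CD44hi cells after epirubicin. They were 291.1, 185.4, 260.5 and 297.7 in CD44lo and 210.1, 202.9, 250.6 and 293.5 in CD44hi cells after hypoxia. Of the 4 changes, only that in CD44lo hypoxia cells passed (0.67 ± 0.21, adjusted p = 0.0284), beside 0.57 ± 0.21 in CD44hi hypoxia cells (0.0533) and 0.54 ± 0.21 and 0.55 ± 0.21 after epirubicin (0.178 and 0.126; limma). The differences between hypoxia and epirubicin were 0.13 (95% interval -0.28 to 0.54) in CD44lo and 0.02 (-0.39 to 0.43) in CD44hi cells. The CD44lo call was lost when any untreated array (0.0955, 0.0554 and 0.0859) or CD44lo hypoxia replicate 1, 3 or 4 (0.0651, 0.056 and 0.0826) was left out. The CD44hi change passed without both hypoxia arrays numbered 2 (0.64, adjusted p = 0.0255; limma) and without both epirubicin arrays numbered 4 (0.57, 0.0299). Without single arrays it passed for CD44hi hypoxia replicate 2, CD44lo hypoxia replicates 1 and 2, CD44lo epirubicin replicate 4 and CD44hi epirubicin replicates 1 and 4 (0.0352 to 0.0499). Groups that do not overlap were common: 31.7% and 38.8% of all genes tested did not overlap untreated cells in the CD44lo and CD44hi hypoxia groups, and 23.9% and 25.6% in the epirubicin groups.

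KDM6B, the H3K27 demethylase, read 196.9, 232.0 and 253.7 untreated and 368.3, 266.8, 399.4 and 388.9 in CD44lo hypoxia cells. These groups did not overlap, and the 1.54-fold rise passed narrowly (log2 0.63 ± 0.22, adjusted p = 0.0473; limma). The call was lost in 5 of 12 other settings and in 13 of the 19 fits that left out an array, among them all 3 untreated arrays (adjusted p = 0.185, 0.103 and 0.0669). In CD44hi hypoxia cells the values were 345.7, 237.0, 321.8 and 331.2, with a change of 0.43 ± 0.22 (0.166). Epirubicin gave changes of 0.42 ± 0.22 and 0.43 ± 0.22. On this probe set, as on that of KDM5A, the hypoxia groups lay close to their epirubicin counterparts, 0.21 and 0.00 from them. KDM2B, the H3K36 demethylase of the PRC1.1 complex, was not called in any comparison. Its values were 162.2 to 226.9 untreated and 139.9 to 203.5 after epirubicin, and 74.2, 191.6, 238.7 and 161.7 in CD44lo and 170.8, 187.1, 244.2 and 172.1 in CD44hi hypoxia cells.

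Of the DNA-oxidising enzymes, only TET1 was called. Its probe set read 9.8, 7.4 and 11.1 in untreated cells and 3.5 to 16.3 on the 8 epirubicin arrays, all below the table median of 16.9. On the hypoxia arrays it read 55.6, 33.3, 26.2 and 17.6 in CD44lo and 28.1, 35.8, 19.6 and 26.1 in CD44hi cells, all above the median but still low signals. The log2 change was 1.37 ± 0.36 in CD44lo (adjusted p = 0.0105) and 1.20 ± 0.36 in CD44hi cells (adjusted p = 0.0184; limma), and the offset of 4.2 understates such changes of dim probe sets. The calls were lost without untreated replicate 2 (0.0517 and 0.0783) and, in CD44hi, without untreated replicate 1 (0.0512) or after quantile normalization (0.0624). A further TET1 probe set read 0.2 to 25.3 and was not tested.

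TET2 and TET3 were not called. TET2 read 206.3, 179.8 and 162.9 in untreated cells and 284.1, 255.9, 269.2 and 147.5 in CD44lo hypoxia cells, where replicate 4 lay below all untreated values and the other 3 above them. The change was 0.34 ± 0.24 (adjusted p = 0.319; 95% interval -0.15 to 0.83). When replicate number was fitted as a block, the change was 0.48 and passed (0.0473). In CD44hi hypoxia cells TET2 was 108.6 to 216.9 (-0.06 ± 0.24). TET3 was 174.4 to 245.6 in untreated cells, 133.6 to 214.7 after hypoxia and 132.9 to 198.2 after epirubicin. Its 4 changes from untreated were all below 0, from -0.43 to -0.23, and none passed.

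**Figure D3:**
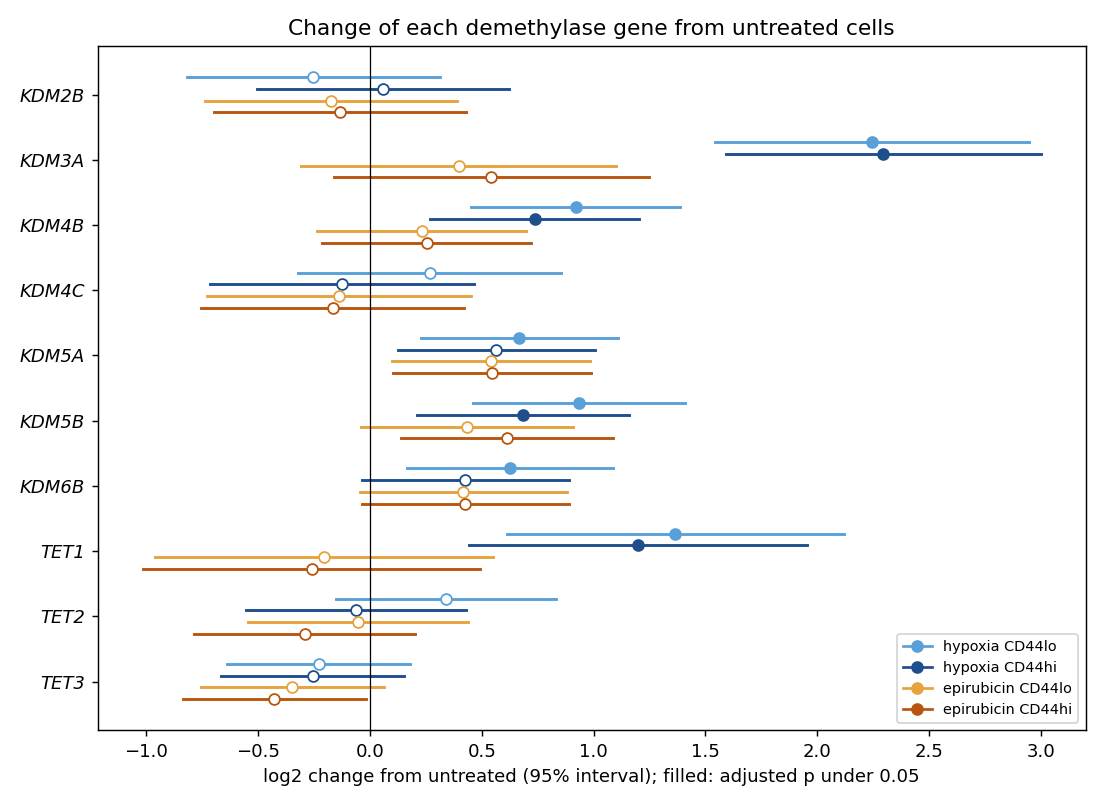
log2 change from untreated cells (x axis) of each of the 10 genes (rows) in the 4 treated groups; points are fitted changes, lines are 95% intervals and filled points have an adjusted p under 0.05. KDM3A after hypoxia stands at 2.25 and 2.30, and no epirubicin point is filled.

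After epirubicin none of the 10 genes was called in CD44lo or CD44hi cells, where 2.82% and 6.42% of all genes tested were. At an unadjusted p under 0.05, limma gave 1 member in CD44lo (KDM5A) and 3 in CD44hi cells (KDM5A and KDM5B higher, TET3 lower). Direct comparison of hypoxia with epirubicin gave 3 members called in CD44lo cells (KDM3A, KDM4B and TET1) and 2 in CD44hi cells (KDM3A and TET1), all with higher signals after hypoxia, against 16.9% and 18.2% of all genes called. KDM3A was 3.60-fold (log2 1.85 ± 0.31, adjusted p = 0.000312) and 3.37-fold higher (log2 1.75 ± 0.31, adjusted p = 0.000541; limma). TET1 differed by 1.57 ± 0.34 and 1.46 ± 0.34 (adjusted p = 0.00259 and 0.00416; limma). It passed the signal filter only through the hypoxia arrays, with every epirubicin value below the table median. Its calls, which held in every setting that tested it, thus add no support to the counts of 3 and 2. KDM4B differed by 0.69 ± 0.21 in CD44lo cells (adjusted p = 0.0259), a call lost without CD44lo epirubicin replicate 2, 3 or 4 (0.0547, 0.0623 and 0.0559) or CD44lo hypoxia replicate 1 or 4 (0.0552 and 0.111), and by 0.48 ± 0.21 in CD44hi cells (0.115), where it passed without CD44hi epirubicin replicate 4 (0.0396), without both epirubicin arrays numbered 4 (0.0448) and with the replicate number fitted as a block (0.0418). KDM5B differed by 0.50 ± 0.21 in CD44lo cells (0.11) and passed there without CD44lo hypoxia replicate 2 (0.0302), without both hypoxia arrays numbered 2 (0.0272) and with the block (0.0496). Of the 7 tested probe sets of KDM4B, 4 were called higher after hypoxia than after epirubicin in CD44lo and 4 in CD44hi cells. In CD44hi cells 6 of the 7 were above 0 (-0.08 to 1.31), so the result there depended on the probe set. All comparisons of hypoxia with epirubicin share their hypoxia arrays with those against untreated cells.

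No member was called between CD44hi and CD44lo cells of the same treatment. After hypoxia, where 0% of all genes were called, the log2 differences ran from -0.40 (TET2) to 0.31 (KDM2B). After epirubicin, where 0.0232% of genes were called, they ran from -0.24 (TET2) to 0.18 (KDM5B). At an unadjusted p under 0.05 limma gave 0 members in either comparison and 0 in the test of whether the CD44 difference depended on treatment (0% of genes called). For KDM3A the 95% interval of the difference between CD44hi and CD44lo cells was -0.60 to 0.70 after hypoxia and -0.50 to 0.80 after epirubicin, so differences of that size remain possible.

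Most genes had further probe sets, which read other stretches of the same transcripts and are not independent. Of the 38, 31 had enough signal. In a fit over 26525 probe sets, 12 were called higher in CD44lo and 10 in CD44hi cells after hypoxia, none lower, where 19.2% and 24.0% of all probe sets were called (9.76% and 11.9% higher). These include the TET1 probe set in each group, which passed the filter only through the hypoxia arrays. The CD44hi count was 3 without untreated replicate 1, 4 without untreated replicate 2, and 5 and 6 without CD44hi hypoxia replicates 1 and 4. None was called after epirubicin (2.59% and 6.15% of all probe sets). KDM4B was measured by 7 tested probe sets, of which 5 were called in each hypoxia group, with all 7 changes above 0 (0.54 to 1.89 in CD44lo, 0.74 to 1.71 in CD44hi). The largest belonged to a dimmer KDM4B probe set that read 26.2, 31.3 and 23.8 untreated, 124.4, 80.4, 106.9 and 144.4 in CD44lo and 108.4, 98.0, 74.0 and 115.3 in CD44hi hypoxia cells. That probe set separated the groups fully, unlike the brighter one that stands for the gene. Among the 7, 1 dim set reached the table median on 0 untreated, 1 epirubicin and 6 hypoxia arrays, so it was tested only through hypoxia. Another reached it on 0 untreated, 3 epirubicin and 5 hypoxia arrays. Neither adds support to the agreement of the 7. For KDM5B 3 of 4 were called in each group (0.63 to 1.21 and 0.69 to 0.89). The dimmest of these 4 read 3.9 to 23.4 and reached the median on 0 untreated, 1 epirubicin and 2 hypoxia arrays. For KDM5A 2 of 5 were called in CD44lo and 0 of 5 in CD44hi cells, and the second brightest probe set gave 0.32 and -0.03. That probe set read 187.1 to 201.4 in untreated cells and 116.8 to 201.2 after epirubicin, and its mean was 164 in CD44lo and 154 in CD44hi epirubicin cells against 243 and 191 after hypoxia, so the KDM5A probe sets disagreed on epirubicin. With it as the probe set of the gene, KDM5A was higher after hypoxia than after epirubicin in CD44lo cells (0.57, adjusted p = 0.0214; limma). For KDM6B none of 5 was called (0.20 to 0.63 in CD44lo, -0.03 to 0.43 in CD44hi), and its leading probe set had an adjusted p of 0.0513 in this fit. All 5 were above untreated cells in both epirubicin groups (0.23 to 1.00 in CD44lo, 0.17 to 0.58 in CD44hi). For hypoxia against epirubicin, 3 of the 5 were below 0 in CD44lo and 4 in CD44hi cells (down to -0.80 and -0.50), with 0 called. All 3 TET3 probe sets were below 0 in both groups (-0.44 to -0.03 and -0.33 to -0.05), and all 3 of TET2 lay between -0.07 and 0.34.

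**Figure D4:**
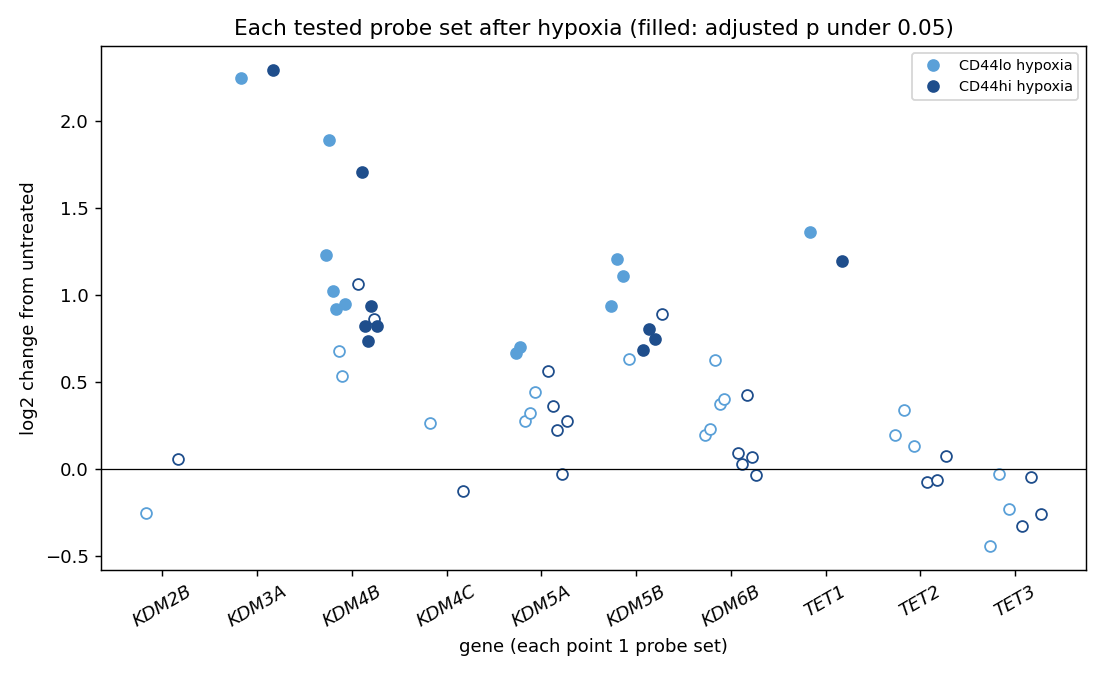
log2 change from untreated cells (y axis) of each tested probe set of the 10 genes (x axis) after hypoxia; each point is a probe set, colours are the CD44 fractions, and filled points have an adjusted p under 0.05. The 7 KDM4B probe sets all lie above 0 and the 3 TET3 probe sets all below. Some of the 7 are dim sets that passed the signal filter only through treated arrays, 1 of them only through hypoxia arrays. Such sets add no support to the agreement.

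Related enzymes and their opponents are given from lists of the pathway, with counts and without a set test. Of 15 other Jumonji demethylase genes, 4 were higher and 0 lower in CD44lo hypoxia cells, and 1 was higher and 1 lower in CD44hi cells, with median changes of 0.19 and 0.16. Over all genes tested, 22.5% and 26.9% were called in either direction (10.7% and 12.8% higher) and the medians were 0.02 and 0.00. Counted in either direction, the 4 of 15 and 2 of 15 called here were near or below the share of all genes. The 4 in CD44lo cells were all higher, for which the like share is 10.7%. The counts of the lists that follow are to be read against the same shares. In CD44lo these were KDM7A, which removes H3K9 and H3K27 marks (0.98 ± 0.27), JMJD1C (0.67 ± 0.17), RIOX2, a ribosomal oxygenase (0.46 ± 0.16), and the H3K27 demethylase KDM6A (0.42 ± 0.15). In CD44hi JMJD1C rose by 0.51 ± 0.17, and KDM3B, the closest relative of KDM3A, fell by 0.54 ± 0.16, opposite to KDM3A. The CD44lo count was 2 without any 1 of the untreated arrays or without CD44lo hypoxia replicate 3 or 4. In CD44hi cells JMJD1C was lost without any 1 untreated array or CD44hi hypoxia replicate 1, 3 or 4, and KDM3B without untreated replicate 2 or 3. KDM7A was lost without untreated replicate 1, RIOX2 without untreated replicate 2 or 3 or CD44lo hypoxia replicate 3 or 4, and KDM6A in most of the fits that left out an array, and the JMJD1C call in CD44lo cells was kept throughout these fits. Among 7 genes of the flavin-dependent demethylases, which need no 2-oxoglutarate, and their partners, 2 were lower in each hypoxia group, HDAC1 and RCOR2. That count was 0 in both groups without untreated replicate 3, 0 in CD44hi without untreated replicate 1, and 1 without several other arrays. Of 9 RNA and DNA repair demethylases of the same dioxygenase class, 0 passed in CD44lo cells and 2 were lower in CD44hi cells, ALKBH2 (-0.95 ± 0.21) and the RNA demethylase FTO (-0.76 ± 0.19).

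The enzymes that set these marks were measured on the same arrays. Of 24 tested histone methyltransferase and PRC2 genes, 5 were lower and 1 higher in each hypoxia group, and 0 passed after epirubicin. Counted in either direction, those 6 of 24 are close to the 22.5% and 26.9% of all genes called in these comparisons (10.7% and 12.8% higher). That count by itself does not set these genes apart, and the balance of lower to higher was not tested. SUV39H1, which trimethylates H3K9, fell from 219 ± 35.3 in untreated cells to 68.0 ± 27.5 in CD44lo and 74.7 ± 31.3 in CD44hi hypoxia cells (SD; log2 -1.70 ± 0.30 and -1.58 ± 0.30). SUV39H2 changed by -1.06 ± 0.35 and -1.36 ± 0.35. EZH2, the H3K27 methyltransferase, changed by -1.35 ± 0.25 and -1.07 ± 0.25, and its partner SUZ12 by -1.0 ± 0.21 and -0.91 ± 0.21. The H3K36 enzyme NSD2 changed by -1.26 ± 0.18 and -1.41 ± 0.18. The gene that rose was KMT2A, an H3K4 methyltransferase (0.79 ± 0.22 and 0.67 ± 0.22). SUV39H1, EZH2, SUZ12 and NSD2 were called in both groups whichever array was left out, though SUZ12 was lost with the mean of all its probe sets (-0.57 and -0.48). SUV39H2 was lost in CD44lo cells without any 1 untreated array or CD44lo hypoxia replicate 1, 3 or 4. KMT2A was lost in both groups without untreated replicate 1 or 2, in CD44lo without CD44lo hypoxia replicate 4, and in CD44hi without CD44hi hypoxia replicate 1 or 4. Of 10 DNA methylation genes and TET partners, 2 were lower in CD44lo and 4 in CD44hi cells, led by UHRF1, which guides maintenance methylation (-2.16 ± 0.35 and -2.22 ± 0.35), with the maintenance enzyme DNMT1 in both (-1.24 ± 0.33 and -0.99 ± 0.33) and the de novo enzyme DNMT3B (-1.24 ± 0.27) and CXXC4 (-1.10 ± 0.40) in CD44hi. The CD44hi count was 2, UHRF1 and DNMT3B, without any 1 untreated array or CD44hi hypoxia replicate 4. DNMT1 was also lost there without CD44hi hypoxia replicate 1, and CXXC4 in 10 of the 19 fits that left out an array. All 10 genes of a proliferation list fell with them in both hypoxia groups, MKI67 by 2.92 on the log2 scale in each, while 0 of the 10 passed after epirubicin. The part of lower proliferation in the falls of these methyltransferase genes was not tested.

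**Figure D5:**
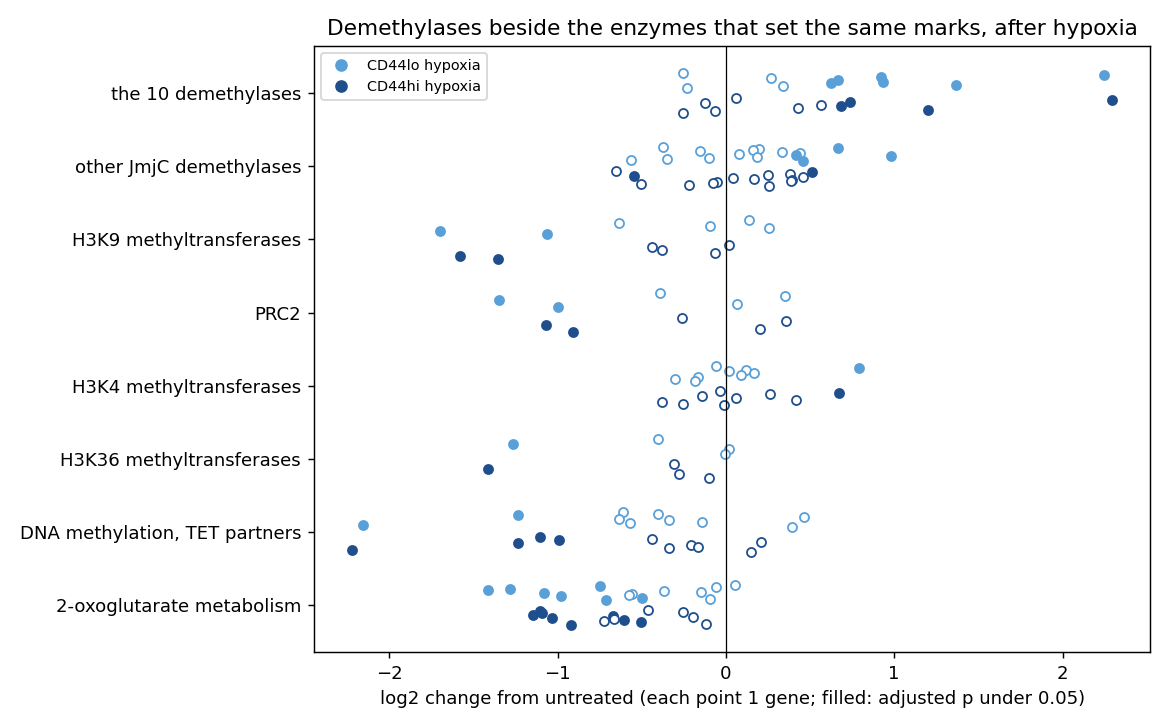
log2 change from untreated cells (x axis) after hypoxia of the 10 demethylases and of the genes of each related list (rows); each point is a gene, colours are the CD44 fractions, and filled points have an adjusted p under 0.05. Filled points of the 10 demethylases lie to the right of 0, and those of the H3K9, PRC2, H3K36, DNA methylation and metabolism lists to the left. The filled point of the H3K4 list (KMT2A) lies to the right in each group. The other Jumonji demethylases have filled points on both sides, with 1 to the left in CD44hi cells.

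Genes that make or use 2-oxoglutarate, succinate and fumarate, the cosubstrate and inhibitors of these enzymes, were lower where they passed after hypoxia. Of 14 tested, 7 were lower in CD44lo and 8 in CD44hi hypoxia cells and 0 higher, with median changes of -0.56 and -0.67. The transaminases GOT2 (-1.41 ± 0.24 and -1.14 ± 0.24) and GOT1 (-1.28 ± 0.28 and -1.09 ± 0.28) and the isocitrate dehydrogenase subunit IDH3A (-1.08 ± 0.32 and -1.03 ± 0.32) were lower in both, as were OGDH in CD44lo (-0.98 ± 0.32) and DLST in CD44hi cells (-1.11 ± 0.22), which encode subunits of the enzyme that consumes 2-oxoglutarate in the cycle. The CD44lo count was 2 without untreated replicate 1 and 3 without untreated replicate 2, untreated replicate 3 or CD44lo hypoxia replicate 4, and IDH3A was lost in both groups without untreated replicate 1 or 2. IDH1, which makes 2-oxoglutarate in the cytosol, was higher after epirubicin in CD44lo and CD44hi cells (0.67 ± 0.15 in each) and lower in CD44hi cells after hypoxia (-0.67 ± 0.15). The median change of the 14 genes was below 0 after epirubicin too, at -0.30 in CD44lo and -0.40 in CD44hi cells (0.03 and 0.00 over all genes). For hypoxia against epirubicin, 3 and 2 of the 14 were lower and 0 higher, with medians of -0.26 and -0.23. In these comparisons 16.9% and 18.2% of all genes were called. Of 8 tested PRC1.1 partners of KDM2B, RYBP was higher in each hypoxia group (0.64 ± 0.17 and 0.60 ± 0.17) and the other 7 did not pass. Both calls were lost without untreated replicate 1. RYBP turned to -0.54 and -0.15 when another of its probe sets was used, so its direction is uncertain.

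For each member called at least once, the 3 genes with the most similar profile were found as the smallest root mean square distance between the 5 centred group means. Those of KDM3A were C8orf58 (0.11 log2 units), PFKFB3, a glycolytic regulator (0.12), and BFSP1 (0.13), against a median distance of 1.00 over all genes tested. Those of TET1 were SLC2A1, the glucose transporter GLUT1 (0.05), NDRG1 (0.05) and SLC9A3-AS1 (0.06). Since the untreated and epirubicin values of TET1 all lay below the table median, its profile depends on the offset there, and these neighbours are listed as values only. The nearest genes were EFCAB3, MINDY2 and SCAND3 for KDM4B, ZFP90, CEP68 and BAIAP3 for KDM5B, CIRBP-AS1, ZNF550 and MGAT3 for KDM5A, and PPL, HAPSTR1 and KBTBD2 for KDM6B.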

How the data were processed

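RNA (200 ng per sample, amplified and biotin labelled) was hybridised to 3' expression arrays of 54675 probe sets, 19 arrays in all. The deposited values are intensities that the authors computed with MAS5, per the submitters' processing notes (version not given in the sources used here), on a linear scale with a common trimmed mean per array. Depth has no meaning for arrays, and their number limits the precision. Probe sets were named from the platform annotation (41091 with 1 gene, 1801 with several, 11721 with none, 62 controls), with symbols checked against RefSeq by Entrez identifier, and 0 were renamed. A gene is its single-gene probe set with the highest mean signal, _x_at sets last, and was tested where its signal was 16.9 (the table's median) or more on 3 arrays. The offset of 4.2 is the 25th percentile. Linear models with 5 group means were fitted with limma 3.58.1 (empirical Bayes with a variance trend) in R 4.3.3, with Benjamini-Hochberg adjustment over 12925 genes. The script was tested on simulated data. The named genes are all 10 members, up to 4 called genes of each list with the largest change (3 for HIF targets and markers), and the 3 genes nearest in profile to each member called. PDK1, P4HA1 and GRB7 are named besides these. The members and lists were chosen with earlier results of these data known. Alternatives were offsets of 1 and 16, no filter or a signal of 50, quantile normalization, other probe set rules, no variance trend, groups fitted alone, the replicate number as a block, and leaving out arrays. Deviations of samples of the same number correlated positively after epirubicin (0.114 to 0.546) but not throughout after hypoxia (-0.04 to 0.633). The lowest epirubicin value, for number 3, was below the 0.140 between CD44lo replicate 3 and CD44hi replicate 1. The labels do not say what the numbers share.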

Additional observations from a re-analysis of the deposited data

Results flagged for a closer look

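Among 40 groups of 4 arrays (10 genes in 4 treated groups), 2 held an array whose gap to its nearest neighbour was larger, as a share of the range of the group, than Dixon's limit for 4 values, which chance passes in about 1 in 20 groups. KDM4B read 351.3 in CD44lo epirubicin replicate 1, against 307.2 to 313.0 in the other 3 arrays of that group. TET2 read 147.5 in CD44lo hypoxia replicate 4, against 255.9 to 284.1 in the other 3.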

How the results depend on the processing

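Of 15 member calls, 7 held in every alternative that tested the gene and with each array left out: KDM3A in all 4 comparisons with hypoxia, KDM4B in CD44lo cells against untreated cells, and TET1 in both comparisons with epirubicin, for which a required signal of 50 left TET1 untested. The TET1 calls add no support, since TET1 passed the main filter only through the hypoxia arrays. No member call changed direction. Of 75 uncalled member comparisons, 5 were called somewhere. With _s_at and _x_at probe sets last, 3 members were called in CD44lo hypoxia cells in place of 6, and 3 in CD44hi cells in place of 4. KDM5B is then read by its dim probe set (3.9 to 23.4), so its calls rest on the brighter _s_at and _x_at sets. With that rule RYBP turned to -0.54 in CD44lo and -0.15 in CD44hi hypoxia cells, and P4HA1 to -0.38 for hypoxia against epirubicin in CD44hi cells. These list checks were chosen after seeing the data. With a signal of 50 required, 1 member in place of 2 was called for hypoxia against epirubicin in CD44hi cells, the one lost being TET1. For hypoxia against epirubicin, 8 of 31 tested member probe sets were called in CD44lo and 6 in CD44hi cells. With the groups fitted alone, 5 in place of 8 were called in CD44lo cells. No share over all probe sets is given for hypoxia against epirubicin. The probe set counts for it, here and below, therefore cannot be set against a background.

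With 1 array left out, members called ranged from 3 to 6 (CD44lo) and 1 to 5 (CD44hi) for hypoxia against untreated, from 2 to 4 and 2 to 3 for hypoxia against epirubicin, and were 0 to 0 in the other comparisons. Member probe sets ranged from 8 to 13 and 3 to 12, and from 5 to 11 and 4 to 6. They were 0 to 1 for CD44hi epirubicin cells and 0 otherwise. Genes called after epirubicin ranged from 74 to 477 (365 with all arrays) and 218 to 999 (830). They were 1190 and 1356 with the groups fitted alone, and 211 and 465 without both epirubicin arrays numbered 4. CD44lo gave 550 without both hypoxia arrays numbered 2. Genes called for hypoxia against untreated ranged from 1625 to 3762 and 2322 to 3777.

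With the replicate number as a block over all arrays, 7, 4, 4 and 3 members were called in the 4 comparisons with hypoxia. TET2 in CD44lo hypoxia cells (0.48, adjusted p = 0.0473; limma), KDM5B for hypoxia against epirubicin in CD44lo cells (0.0496) and KDM4B for the same in CD44hi cells (0.0418) were added, and 600 genes were called in CD44lo epirubicin cells. With the block within a treatment, 18 genes in place of 3 differed between CD44hi and CD44lo cells after epirubicin and 2 in place of 0 after hypoxia, with 0 members in each. The cause of these shifts was not tested.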
